A study of Homo sapiens with 6 samples.

Results

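The SR proteins, the heterogeneous nuclear ribonucleoproteins (hnRNPs), the TRA2 proteins and the CLK kinases were followed at the RNA level in MM.1S, a cell line of human multiple myeloma. Members were chosen by gene name alone: SRSF followed by a number, HNRNP followed by letters or numbers with pseudogene names left out, TRA2A or TRA2B, and CLK1 to CLK4. This gave 41 of the 21850 genes in the deposited tables, namely 12 SRSF, 23 HNRNP, 2 TRA2 and 4 CLK genes. The antisense-type entry HNRNPD-DT shares the prefix and was not a member. The study asked what loss of PRKCN, a kinase of the protein kinase D family, does to myeloma cells. Libraries named MM.1S-p3-1 came from MM.1S cells infected with a lentiviral short hairpin RNA against PRKCN (shPRKCN, genotype given as PRKCN knockdown), and libraries named MM.1S-PSG came from MM.1S cells infected with a scramble hairpin (shNT, genotype given as WT). There were 3 libraries per group, all of day 3, and both groups carried a virus. The labels do not say which hairpin was used, and a single knockdown derivative of a single cell line was compared. Nothing in the labels says that libraries of a group came from separate cultures, so p-values measure only the spread between these libraries, which may be technical.

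SR proteins bind exonic enhancers through RNA recognition motifs and recruit the spliceosome through a domain rich in arginine and serine, whereas many hnRNPs bind silencers or introns and oppose exon inclusion. TRA2A and TRA2B are SR-like activators that bind purine-rich exons, and the CLK kinases phosphorylate the arginine-serine domains of SR proteins in the nucleus. Many of these genes limit their own output by splicing a poison exon or retaining an intron, which sends the transcript to nonsense-mediated decay. A gene-level count, as used here, adds up such transcripts and the coding ones and measures neither protein nor splicing.

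Total counts ran from 35625564 to 37730003 per library. PRKCN, listed as PRKD3, had 198, 202 and 189 FPKM (a level scaled to gene length and library size) in shNT and 84.8, 76.4 and 83.6 in shPRKCN, a log2 fold change of -1.29. Defining plasma cell markers were present in both groups. Among the markers listed, the largest count was 8 for B cells, 9 for monocytes and 35 for stromal or epithelial cells. Of the 3 T cell markers, CD3E was the exception, with up to 1150 counts and a log2 fold change of 1.41.

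A filter on low counts kept 38 members among 13971 genes tested. The other 3 members had next to no reads in either group: SRSF12 and HNRNPH2 had 0 to 6 counts and HNRNPCL2, a relative of HNRNPC, 0 to 1. The value of HNRNPH2 was not read as absence. GENCODE annotates a read-through gene, RPL36A-HNRNPH2, that covers 362 of its exon bases (16.3%) on the same strand, the read-through has no row in the tables, RPL36A itself had only 8 to 17 counts, and how overlapping genes were counted is not given in the sources used here.

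Across the 4 families the members moved little, and mostly downward. With edgeR's quasi-likelihood test, 0 of 38 tested members were called, that is, passed both limits of the study (0.05 for the adjusted p, 0.58 for the log2 fold change up or down), against 16.7% of all genes tested. DESeq2 and limma on FPKM also called 0. glmTreat tests the same edgeR fit against the same fold limit, so its count of 0 was fixed in advance. In edgeR 29 members had an unadjusted p under 0.05, and the share at that limit was not worked out for all genes tested. Without the fold limit, 24 members (63.2%) were lower in shPRKCN at an adjusted p under 0.05, against 27.8% of all genes tested, and 3 (7.89%) were higher, against 26.5%. The remaining 11 did not pass. In CPM (counts scaled to the normalized library size), no library crossed between groups for 25 members that were lower in shPRKCN, against 29.7% of all genes tested, and for 4 that were higher, against 29.0%.

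The changes were small and narrowly bounded. The median log2 fold change of the tested members was -0.12, with quartiles of -0.19 and -0.04, while the median of all genes tested was 0.0012, with quartiles of -0.27 and 0.22. Members are abundant genes: the coefficient of variation within a group had a median of 2.07%, and the 95% confidence interval of 37 members lay wholly inside the fold limit, against 59.7% of all genes tested. The exception was CLK3. Among the 700 tested genes at or above the members' median level, 9.86% were called, 33.6% fell and 35.4% rose at an adjusted p under 0.05. Among the 9042 tested genes within the members' range of levels the shares were 11.9%, 32.2% and 32.4%.

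**Figure D1:**
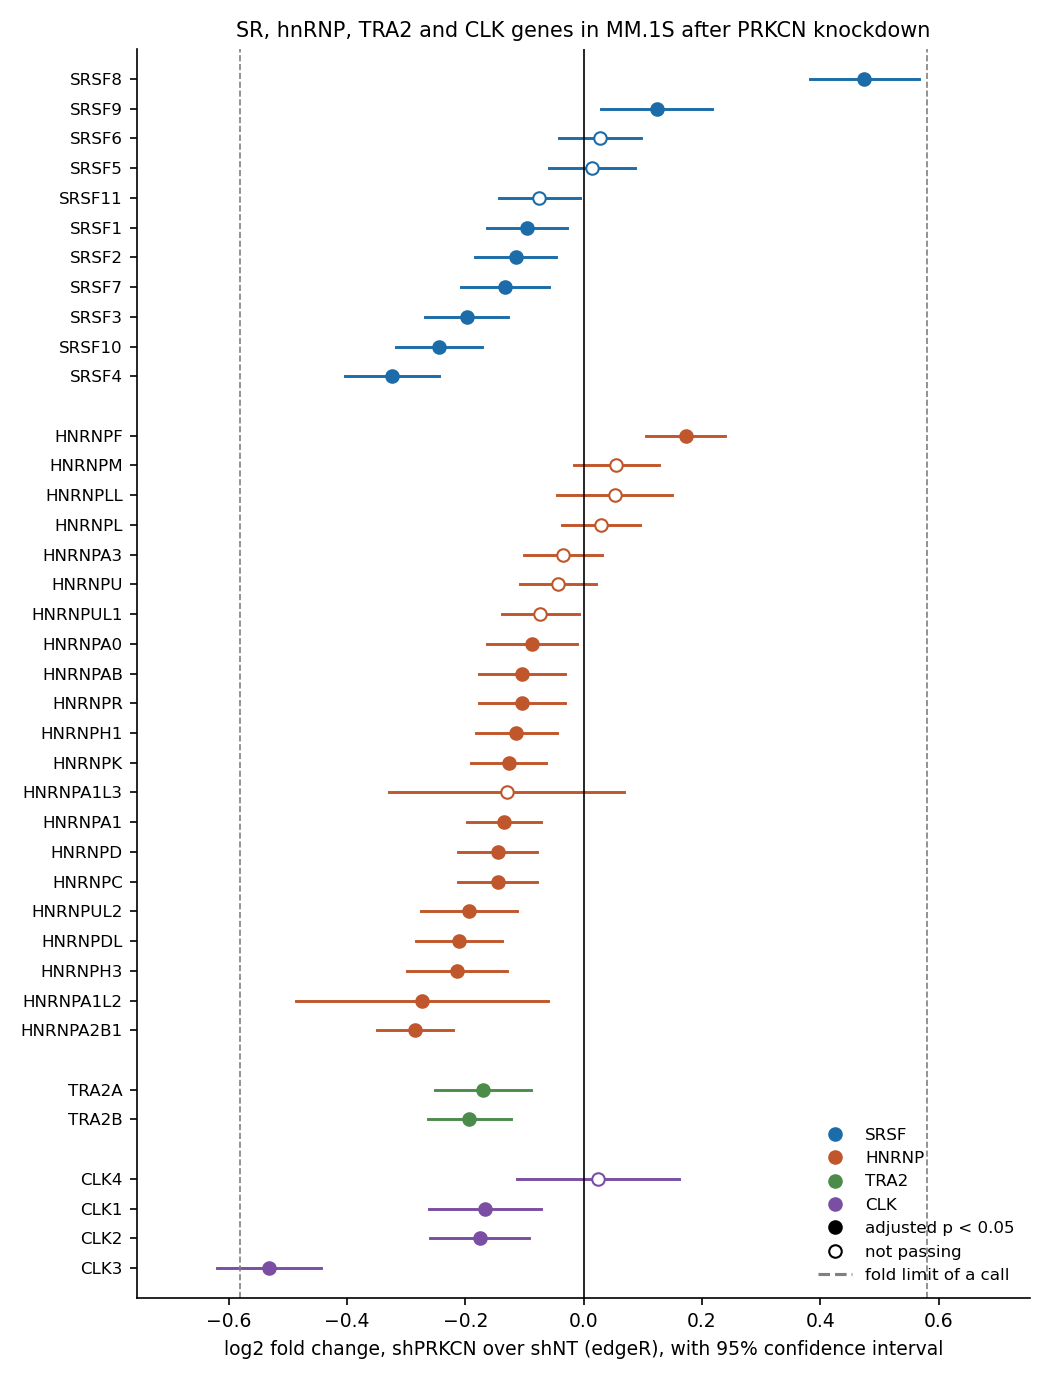
Log2 fold change of each of the 38 tested members, shPRKCN over shNT, with its 95% confidence interval from edgeR. Filled points passed an adjusted p of 0.05, open points did not, and dashed lines mark the fold limit of 0.58. Most points lie a little left of 0. CLK3 at -0.53 and SRSF8 at 0.47 lie furthest out.

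**Figure D2:**
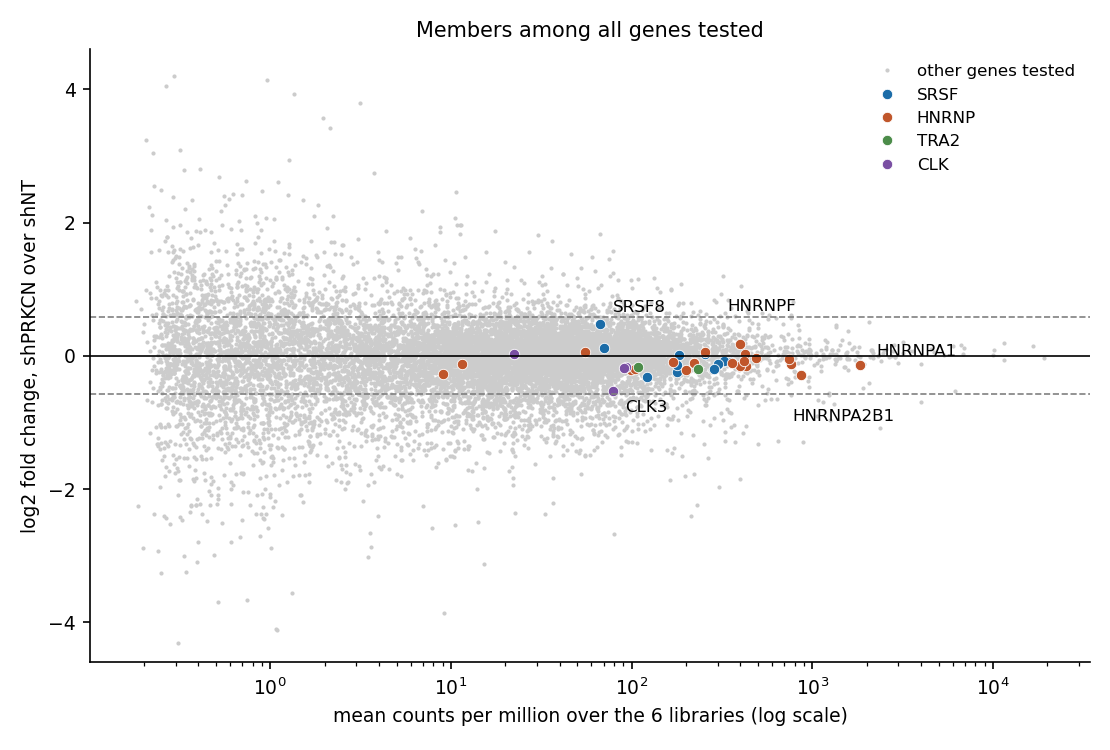
Log2 fold change (shPRKCN over shNT) against the mean CPM over the 6 libraries, on a log axis, for the 13971 genes tested. Grey points are other genes, coloured points the 4 families, and dashed lines the fold limit. No member lies outside the dashed lines.

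The CLK kinases, which phosphorylate SR proteins, held the member that fell most. CLK3 had 47.3, 48.4 and 49.6 FPKM in shNT and 33.5, 34.4 and 33.9 in shPRKCN, from 3218, 3413 and 3571 counts against 2359, 2459 and 2427. Every shPRKCN library lay below every shNT library, and CLK3 fell to 69.2% of shNT (log2 fold change -0.53 ± 0.044 SE, 95% interval -0.62 to -0.44, adjusted p = 4.4e-17, edgeR). Of its exon bases 3.43% overlap EDC3 on the opposite strand, whose log2 fold change was 0.17.

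CLK2 fell as well, by less. It had 44.5, 43.2 and 45.0 FPKM in shNT and 40.3, 39.1 and 39.8 in shPRKCN (log2 fold change -0.18 ± 0.042 SE). CLK1, the best-studied member of the family, passed at -0.17, but its groups overlapped. The library shPRKCN 2 stood at 33.7 FPKM beside 41.5 and 39.8 in the others. Without it the log2 fold change of CLK1 was -0.09 with an adjusted p of 0.093 in edgeR. In total CLK1 missed the threshold in 4 of 16 alternatives. CLK4, the closest relative of CLK1, did not pass: it had 8.86, 8.20 and 9.17 FPKM in shNT and 9.01, 8.84 and 9.19 in shPRKCN, and the interval of its log2 fold change ran from -0.11 to 0.16.

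The order of the kinases changed with the knockdown. In shNT CLK3 had the highest level per length of the 4, at 48.4 ± 1.13 FPKM (SD, n = 3), above CLK2 at 44.2 ± 0.910 and CLK1 at 42.4 ± 2.33, which overlapped each other, and CLK4 was far lower at 8.74 ± 0.493. In shPRKCN CLK2 at 39.7 ± 0.615 and CLK1 at 38.3 ± 4.06 led, and CLK3 was at 33.9 ± 0.481, below CLK2 and overlapping CLK1. In counts the 4 kinases together took 0.0307% of each shNT library and 0.0261% of each shPRKCN library on average.

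**Figure D3:**
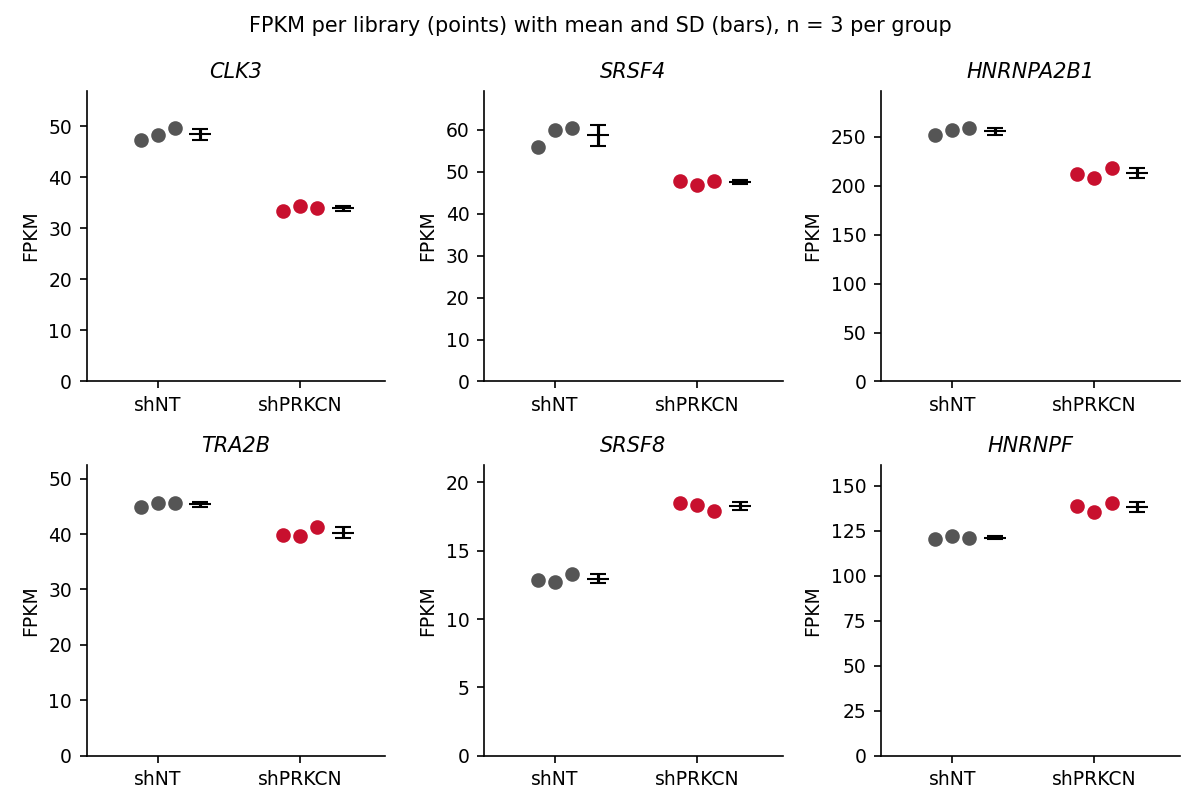
FPKM in every library of 4 members that fell (CLK3, SRSF4, HNRNPA2B1, TRA2B) and 2 that rose (SRSF8, HNRNPF), with axes from 0. Points are libraries, and bars give the mean and SD of 3 libraries. The groups do not overlap for any of the 6.

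Among the SRSF genes, 6 of 11 fell, 2 rose and 3 did not pass, with a median log2 fold change of -0.096. SRSF4, which has a pair of RNA recognition motifs, fell most: it had 55.9, 59.9 and 60.4 FPKM in shNT and 47.8, 47.0 and 47.8 in shPRKCN. All shPRKCN libraries were below all shNT libraries, at 79.9% of shNT (log2 fold change -0.32 ± 0.040 SE, interval -0.40 to -0.25, adjusted p = 1.1e-10, edgeR). SRSF10, which turns into a splicing repressor when dephosphorylated, was next at -0.24 (17.5 ± 0.231 FPKM in shNT against 14.9 ± 0.275, SD, n = 3). SRSF3 and SRSF7, which also serve as adaptors for mRNA export, fell by 0.20 and 0.13 on the log2 scale. For SRSF3 the levels were 72.5, 70.8 and 72.7 FPKM in shNT and 62.6, 66.0 and 62.1 in shPRKCN.

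SRSF2, a regulator often mutated in myeloid neoplasms, and SRSF1, the prototype of the family, fell by 0.12 and 0.10 on the log2 scale. SRSF2 stood at 104 ± 2.44 FPKM in shNT and 97.6 ± 1.28 in shPRKCN, and SRSF1 at 65.9 ± 1.35 and 62.5 ± 2.58 (SD, n = 3). SRSF1 missed the threshold in 6 of 16 alternatives. Among them were the edgeR fits without shNT 1, shNT 2 or shPRKCN 2, with adjusted p-values of 0.064, 0.081 and 0.063. Both share exon bases with annotated neighbours: 36.7% of SRSF2 lies opposite MFSD11, whose log2 fold change was 0.16, and 56.6% of SRSF1 lies within AC015813.2 on the same strand.

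SRSF8 rose, and by more than any other member. It had 12.9, 12.7 and 13.3 FPKM in shNT and 18.5, 18.3 and 17.9 in shPRKCN, so every shPRKCN library was above every shNT library. It rose to 139% of shNT (log2 fold change 0.47 ± 0.046 SE, interval 0.38 to 0.57, adjusted p = 3.1e-14, edgeR), just inside the fold limit. SRSF8 is a retrocopy of SRSF2 with a gene of its own on chromosome 11, while SRSF2 is on chromosome 17. Their first 90 coding bases are shown because the copies moved in opposite directions and reads must be told apart. Capitals mark the 10 bases at which they differ, and over 657 aligned coding bases the identity was 84.8% in GENCODE.
SRSF2: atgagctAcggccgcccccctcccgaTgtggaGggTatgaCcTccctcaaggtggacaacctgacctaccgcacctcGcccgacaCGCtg
SRSF8: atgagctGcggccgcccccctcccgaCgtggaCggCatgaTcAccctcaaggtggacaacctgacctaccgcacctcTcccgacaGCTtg
Of the 50-base words in SRSF8 transcripts 3.98% occur in an annotated gene that does not overlap it, and none of those in SRSF2 transcripts do. Overlapping genes were left out of this count, and SRSF2 shares 99 exon bases with MIR636 on the same strand. The FPKM of SRSF8 divided by that of SRSF2 was 0.127, 0.121 and 0.125 in shNT and 0.188, 0.191 and 0.183 in shPRKCN.

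SRSF9 rose by less, and less firmly. It had 57.2, 54.2 and 61.8 FPKM in shNT and 63.3, 63.1 and 64.9 in shPRKCN (log2 fold change 0.12 ± 0.047 SE, adjusted p = 0.022, edgeR). Without shNT 2 its log2 fold change was 0.08 with an adjusted p of 0.19, and it also missed the threshold without shNT 1 (0.066) and without shPRKCN 3 (0.056). In total SRSF9 missed it in 5 of 16 alternatives. GATC, which overlaps 46.2% of its exon bases on the opposite strand, rose by 0.24 on the same scale. Whether reads were counted by strand is not given in the sources used here, and the share of GATC reads in SRSF9 was not tested.

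For SRSF5, SRSF6 and SRSF11 no difference passed. The intervals of their log2 fold changes were -0.06 to 0.09, -0.04 to 0.10 and -0.14 to -0.0065. The order of the SRSF genes in level per length differed between the groups, among others for SRSF4, SRSF8 and SRSF9. In shNT SRSF2 (104 FPKM) stood above SRSF5 (74.96), SRSF3 (72.0) and SRSF1 (65.9), SRSF7, SRSF4, SRSF9 and SRSF6 lay together between 57.7 and 59.3 with overlapping libraries, and SRSF11 (37.7), SRSF10 (17.5) and SRSF8 (13.0) were lowest. In shPRKCN SRSF4 (47.5 FPKM) had dropped clear of that middle group, with SRSF7 at 54.9 and SRSF6 at 59.6. SRSF9 (63.8) now had libraries overlapping those of SRSF3 (63.6) and SRSF1 (62.5), and SRSF8 (18.3) had passed SRSF10 (14.9).

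Of the 21 tested HNRNP genes, 13 fell, 1 rose and 7 did not pass, with a median log2 fold change of -0.11. HNRNPA2B1, which binds exonic silencers and is also known for sorting RNAs, fell most. It had 252, 257 and 259 FPKM in shNT and 212, 208 and 218 in shPRKCN, with no overlap, at 82.1% of shNT (log2 fold change -0.28 ± 0.032 SE, interval -0.35 to -0.22, adjusted p = 6.6e-12, edgeR). No 50-base word of its transcripts occurs in an annotated gene that does not overlap it, and 3.97% of its exon bases lie opposite CBX3.

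HNRNPA1, the classic antagonist of SR proteins, was the most abundant member per length. It had 516, 502 and 506 FPKM in shNT and 470, 462 and 476 in shPRKCN, a fall to 91.1% of shNT (log2 fold change -0.13 ± 0.031 SE). Its copies HNRNPA1L2 and HNRNPA1L3 are listed with few reads, 304 to 390 and 343 to 463 counts, at log2 fold changes of -0.27 (passing) and -0.13 (not passing). Both are uncertain. Of their 50-base words 53.3% and 51.6% occur in other genes, and 22.8% of those of HNRNPA1 do. HNRNPA1 lies on chromosome 12 and HNRNPA1L2 on chromosome 13, and over 963 aligned coding bases the identity was 98.4%. HNRNPA1L2 missed the threshold with DESeq2 (adjusted p = 0.051), without shNT 1 (0.064), without shNT 3 (0.10) and without shPRKCN 3 (0.065), with a log2 fold change between -0.27 and -0.23 in these. The value of HNRNPA1L3 was -0.02 without shPRKCN 2 and -0.22 without shPRKCN 1, and it passed in neither.

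The other A/B-type genes moved by little. HNRNPAB and HNRNPA0, which binds AU-rich elements, had log2 fold changes of -0.10 and -0.09, and HNRNPA3 had -0.04 with an interval of -0.10 to 0.03. HNRNPA0 passed with an adjusted p of 0.045 in edgeR and missed the threshold in 13 of 16 alternatives, among them DESeq2 (0.072). Leaving out any of shNT 2, shNT 3, shPRKCN 1 and shPRKCN 3 gave adjusted p-values of 0.27, 0.13, 0.17 and 0.12, and without shNT 2 its log2 fold change was -0.06. HNRNPAB missed the threshold in 4 of 16 alternatives, among them without shNT 1 (0.14) and without shPRKCN 1 (0.11).

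The D-type proteins bind AU-rich RNA and are known for their part in mRNA decay. HNRNPD, also called AUF1, fell from 135 ± 2.54 to 124 ± 1.04 FPKM (SD, n = 3, log2 fold change -0.15), and HNRNPDL fell from 49.0 ± 1.78 to 42.9 ± 0.695 (log2 fold change -0.21). Neither pair of groups overlapped. HNRNPC, which binds uridine tracts and guards against the inclusion of Alu exons, and HNRNPK, which binds cytosine-rich RNA, fell from 99.8 ± 2.77 to 91.4 ± 1.16 FPKM and from 259 ± 2.65 to 241 ± 2.74.

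The F/H-type proteins bind runs of guanine, and they split. HNRNPF had 120, 122 and 121 FPKM in shNT and 139, 136 and 141 in shPRKCN, so all shPRKCN libraries were higher, at 113% of shNT (log2 fold change 0.17 ± 0.033 SE, interval 0.11 to 0.24, adjusted p = 8.2e-06, edgeR). It was the only HNRNP gene that rose at an adjusted p under 0.05. HNRNPH1 fell to 92.4% of shNT (96.6, 99.8 and 96.8 FPKM against 93.6, 86.8 and 94.3), and HNRNPH3 fell to 86.2% (37.9, 35.9 and 38.1 against 34.0, 30.5 and 33.4). HNRNPH1 missed the threshold with limma on log2(FPKM + 1) (adjusted p = 0.114) and on log2(FPKM + 0.1) (0.105). No 50-base word of HNRNPF or HNRNPH3 occurs in an annotated gene that does not overlap it. Of the exon bases of HNRNPH3 2.14% lie opposite RUFY2.

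Of the remaining HNRNP genes 2 fell and 5 did not pass. HNRNPUL2, a relative of HNRNPU, fell by 0.19 on the log2 scale with no overlap between groups (adjusted p = 3.6e-05, edgeR), and 44.1% of its exon bases lie in the read-through HNRNPUL2-BSCL2. HNRNPR had -0.10 and missed the threshold in 5 of 16 alternatives, among them without shPRKCN 2 or shNT 2 (adjusted p = 0.088 and 0.086, edgeR). HNRNPU, the scaffold attachment factor, HNRNPUL1, HNRNPM, HNRNPL, which binds CA repeats, and HNRNPLL, known for regulating the splicing of CD45 in lymphocytes and plasma cells, did not pass. Their log2 fold changes were -0.04, -0.07, 0.06, 0.03 and 0.05, and the intervals of the 5 together ran from -0.14 to 0.15. Per length, HNRNPK and HNRNPA2B1 had overlapping libraries in shNT (257 to 262 against 252 to 259 FPKM) and did not overlap in shPRKCN (238 to 243 against 208 to 218).

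Both TRA2 genes fell by similar amounts. TRA2A had 47.5, 45.9 and 46.0 FPKM in shNT and 42.0, 40.0 and 43.7 in shPRKCN (log2 fold change -0.17 ± 0.041 SE, interval -0.25 to -0.09). TRA2B had 44.9, 45.7 and 45.6 in shNT and 39.8, 39.6 and 41.3 in shPRKCN (log2 fold change -0.19 ± 0.035 SE, interval -0.26 to -0.12). No library of either gene crossed between groups, and with adjusted p-values of 0.00027 and 2.7e-06 in edgeR both passed. In FPKM every TRA2A library lay above every TRA2B library in shNT, and the libraries of the 2 genes overlapped in shPRKCN.

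Ratios between related members within a library show unequal change without regard to library scaling. Of 11 pairs set side by side after their values were known, 7 had ratios of FPKM that did not overlap between the groups. Single genes did not overlap in CPM for 29.7% (lower) and 29.0% (higher) of all genes tested. The share for pairs of other genes was not worked out. HNRNPF over HNRNPH1 went from 1.24 ± 0.0149 to 1.51 ± 0.0426 (SD, n = 3), SRSF6 over SRSF4 from 0.983 ± 0.0120 to 1.25 ± 0.0198, CLK3 over CLK2 from 1.09 ± 0.0277 to 0.855 ± 0.0254, and HNRNPA2B1 over HNRNPA1 from 0.504 ± 0.0144 to 0.454 ± 0.00453. HNRNPUL2 over HNRNPUL1 and HNRNPDL over HNRNPD moved down by less. The ratios of SRSF3 to SRSF7, TRA2A to TRA2B, HNRNPLL to HNRNPL and CLK1 to CLK4 overlapped.

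Added up, the members took 1.18% ± 0.00191 of the counts of the shNT libraries and 1.11% ± 0.0191 of those of the shPRKCN libraries (SD, n = 3), with no overlap. The HNRNP genes made up most of this, at 0.872% and 0.822%, followed by the SRSF genes at 0.237% and 0.226%. Since RNA was extracted from all cells of a culture, fewer cells of a kind and less RNA per cell cannot be told apart. Markers of dividing cells moved in the same direction as most members: all 12 cell cycle genes examined were lower, 8 of them called, with a median log2 fold change of -0.85. Their summed level was 2890 to 2960 CPM in shNT and 1450 to 1470 in shPRKCN. Of 8 plasma cell markers 6 were lower and 1 higher, and their summed level was 3860 to 3930 and 2530 to 2620 CPM. The part of these markers in the members' results was not tested.

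Annotation of transcripts that can end in decay is common in these families. In GENCODE release 29, 29 of the 38 tested members (76.3%) have at least 1 transcript marked as a target of nonsense-mediated decay, against 43.7% of 12191 tested protein-coding genes. All 11 tested SRSF genes, 13 of 21 HNRNP genes, both TRA2 genes and 3 of 4 CLK genes do. A retained intron is annotated in 27 (71.1%), against 58.0%. Members also have more annotated transcripts, with a median of 11.5 against 8, so the shares are a description. The counts do not separate these transcripts from the coding ones.

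Promoter sequence was looked up in RefSeq (GRCh38.p14) from 250 bases before to 50 after each gene's start, and 34 tested members had an entry. HNRNPA1, HNRNPA1L3, SRSF2 and TRA2A had none. Members' promoters held a median of 30 CG dinucleotides, against 26 over 11035 promoters of tested genes and 14 over all 27305 in the table. Of the short motifs searched on both strands, none of which contains another, the E-box CACGTG was in 8 members (23.5%), against 10.1% of tested-gene promoters and 7.43% of all. The E2F-type GCGGGAA was in 8 (23.5%), against 10.1% and 6.56%, and TATAAA in 5 (14.7%), against 5.86% and 12.0%. The Sp1-type GGGCGG was in 67.6%, against 68.1% and 44.6%, the CCAAT box in 44.1%, against 37.1% and 35.7%, and CCGGAAG of ETS factors in 14.7%, against 19.2% and 10.7%. The interferon-response pattern of paired GAAA was in 2 members (5.88%, against 3.21% and 3.65%). The NRF1 palindrome and TGACGTCA of CREB were in 0 of 34, against 2.36% and 3.16% of tested-gene promoters. A match is a description of the letters and not evidence of binding.

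The 250 bases before the RefSeq start are shown for SRSF4 and CLK3, which fell most in their families, and for SRSF8, which rose most. Capitals mark the motifs named above, read on either strand. SRSF4 (chr1:29181901-29182150, minus strand) is rich in CG, with 36 in the stretch, and holds CCGGAAG on the minus strand of the gene 241 bases upstream, GCGGGAA at 82 and GGGCGG at 34. SRSF8 (chr11:95066627-95066876, plus strand) and CLK3 (chr15:74608122-74608371, plus strand) have 2 and 3 CG dinucleotides and only CCAAT boxes. The table holds 1 start per gene, and other starts were not used here.
SRSF4: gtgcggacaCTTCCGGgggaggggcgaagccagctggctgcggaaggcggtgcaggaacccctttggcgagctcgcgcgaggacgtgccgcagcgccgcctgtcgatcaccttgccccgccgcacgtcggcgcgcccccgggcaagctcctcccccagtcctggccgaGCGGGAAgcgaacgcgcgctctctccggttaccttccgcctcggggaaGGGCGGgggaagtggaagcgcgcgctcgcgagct
SRSF8: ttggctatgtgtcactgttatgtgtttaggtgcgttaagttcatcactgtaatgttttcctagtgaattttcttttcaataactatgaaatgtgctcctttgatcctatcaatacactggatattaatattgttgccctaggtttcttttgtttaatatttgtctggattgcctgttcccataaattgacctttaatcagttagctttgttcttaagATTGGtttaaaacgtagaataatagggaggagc
CLK3: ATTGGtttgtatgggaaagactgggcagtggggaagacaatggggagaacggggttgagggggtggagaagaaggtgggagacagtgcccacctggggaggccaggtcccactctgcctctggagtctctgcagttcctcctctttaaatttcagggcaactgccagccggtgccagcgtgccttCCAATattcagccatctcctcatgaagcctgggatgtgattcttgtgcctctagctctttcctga

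The rest of the splicing machinery was examined in 7 lists of 137 genes by role. Of 136 tested, 46 fell and 32 rose at an adjusted p under 0.05, against 27.8% and 26.5% of all genes tested. Their median log2 fold change was -0.03. At the study's limits 4 were called lower and 2 higher, against 16.7% of all genes tested called in either direction. The counts of each list below are a description, to be read against the same shares. The difference between the genes of the 7 lists and the SR, hnRNP, TRA2 and CLK members was not tested.

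**Figure D4:**
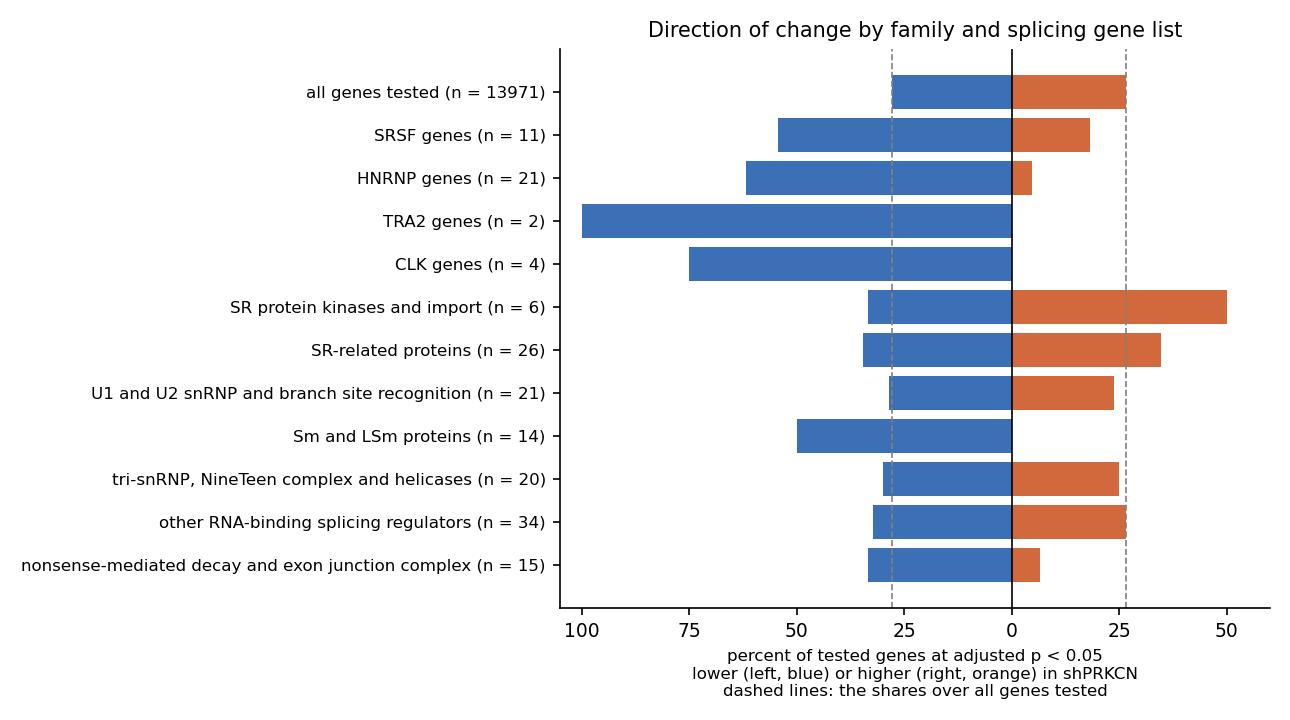
Percent of tested genes at an adjusted p under 0.05 that were lower (left, blue) or higher (right, orange) in shPRKCN, for all genes tested, the 4 families and 7 lists of other splicing genes, with the number tested. Dashed lines mark 27.8% and 26.5%, the shares over all genes tested. All 4 families reach beyond the left line and stay short of the right one.

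Of 6 tested genes for other kinases and the importer of SR proteins, 2 were lower and 3 higher. TNPO3, the importin that carries SR proteins into the nucleus, fell by 0.24 on the log2 scale and the cytoplasmic kinase SRPK2 by 0.23, while SRPK1 rose by 0.14. DYRK1B, with 181 to 403 counts, rose by 0.81 and was the only one called. Of 26 SR-related proteins 9 were lower and 9 higher. SREK1 and RSRC1 each had a log2 fold change of -0.33, as did CCNL1, a cyclin of the splicing-linked CDK11 kinases. LUC7L2, a U1-associated factor, was called lower at -0.95, with 21.8% of its exon bases in the read-through C7orf55-LUC7L2.

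Among core components the Sm and LSm proteins, which form the rings of the small nuclear ribonucleoproteins (snRNPs), had 7 lower of 14 tested, and the others did not pass. LSM6 was called at -1.08, and SNRPB, LSM4 and LSM3 fell by 0.26, 0.22 and 0.21. Of 21 genes of the U1 and U2 snRNPs and branch site recognition 6 were lower and 5 higher. SNRPA1 had a log2 fold change of -0.49, SF3B2 -0.34 and SNRPA -0.25. U2AF1, which reads the end of the intron, was called higher at 1.22, but its counts ran from 54 to 752, the groups overlapped, 94.3% of its 50-base words occur in other annotated genes, and without shPRKCN 3 its log2 fold change was 0.33 with an adjusted p of 0.42. In the tri-snRNP, the PRPF19 complex and the helicases 6 were lower and 5 higher of 20, with CRNKL1 at -0.35, CDC5L at -0.27, BCAS2 at -0.23 and EFTUD2 at 0.22. The groups of BCAS2 overlapped, and it missed the threshold with DESeq2 (adjusted p = 0.090), with library size alone (0.056) and in every limma fit (0.073 to 0.26). BCAS2 also missed it in edgeR when shNT 1, shNT 3, shPRKCN 1 or shPRKCN 2 was left out (adjusted p = 0.23, 0.11, 0.076 and 0.12). Without shNT 1 its log2 fold change was -0.15.

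Among 34 other RNA-binding regulators 11 were lower and 9 higher. MBNL1, a developmental splicing regulator, changed most: it fell from 305 ± 5.01 to 87.6 ± 4.91 CPM (SD, n = 3), to 28.7% of shNT (log2 fold change -1.80 ± 0.039 SE). Its relative MBNL2 rose by 0.36 and CELF1, which often opposes the MBNL proteins, by 0.44. PTBP2 had -0.50 from 128 to 263 counts, and -0.36 with an adjusted p of 0.064 without shNT 3. Of 15 genes of nonsense-mediated decay and the exon junction complex, 5 were lower and 1 higher. MAGOHB had -0.30, SMG9 -0.29 and SMG5 -0.14, which missed the threshold without shPRKCN 3 (adjusted p = 0.062), and UPF3A rose by 0.16.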

How the data were processed

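RNA of 6 MM.1S libraries was sequenced. The authors deposited raw gene counts and FPKM values of 21850 genes. Per the labels, FastQC, HISAT2, StringTie and GRCh38.p14 were used, and the study's methods name DESeq2 with limits of 0.05 and 0.58. Versions, the annotation, the counting rule and strandedness are not given in the sources used here. Every column matched 1 sample, by title.

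Here counts were scaled by TMM, filtered with filterByExpr and fitted in R 4.3.3 with the quasi-likelihood test of edgeR 4.0.16, with Benjamini-Hochberg adjustment over all 13971 genes tested. Intervals are 95% and two-sided. FPKM served for levels between genes and use the authors' gene lengths. CPM used TMM-scaled totals. Total counts of 35625564 to 37730003 set the precision. Alternatives were a replicate block, glmTreat, DESeq2 1.42.0, scaling by library size alone, by RLE or by upper quartile, at least 10 counts per library or no filter at all, each library left out in turn, and limma 3.58.1 on log2(FPKM + 1), on log2(FPKM + 0.1) and with a minimum of 1 FPKM in 3 libraries. The scripts were tested on simulated data. Each library counted as 1 replicate. Libraries of a group differed by more than counting noise (chi-square per degree of freedom of 3.38 to 4.80, and 63.8 to 70.2 between groups). That spread can be technical and does not show that the libraries came from separate cultures.

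Members and lists were chosen with earlier results of these data known. In each family the members with the largest and smallest log2 fold change were given in every library, and others were added after their values were seen. Of each other list up to 4 genes were named, those with the largest absolute change among genes at an adjusted p under 0.05 with a mean of at least 50 counts. Marker and neighbour genes were named where a result touched them. Exon overlap, shared 50-base words, transcript types and coding sequences came from GENCODE release 29, and promoters from RefSeq. Words shared with a gene that overlaps the gene in question were not counted. Some sequences and genes are not reported here.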

Additional observations from a re-analysis of the deposited data

How the results depend on the processing

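Over 17 alternatives the number of members called stayed at 0 in both directions, which for glmTreat was fixed by the main fit. In each of the 16 that tested without a fold limit, 17 members fell and 2 rose at an adjusted p under 0.05. The log2 fold changes of members changed sign in 1 case: CLK4 was at -0.0158 without shNT 2 and ranged from -0.0158 to 0.0607 over the libraries left out. The median of the HNRNP genes moved from -0.114 to -0.094 with library size alone, to -0.0938 with limma on log2(FPKM + 1), with or without the FPKM minimum, and to -0.0947 on log2(FPKM + 0.1). The number of genes called over all genes tested moved from 2334 to 1160 with glmTreat, 963 with limma on log2(FPKM + 1) and 945 with the FPKM minimum, and the cause was not tested for the last 2. For members, 561 values kept direction and side of the threshold, 43 lost the threshold and 3 gained it, those of HNRNPUL1. For the other splicing genes named, where the same alternatives were added after seeing the data, 429 kept both and 18 lost the threshold, none with a change of sign. U2AF1 lost it with DESeq2 (adjusted p = 0.37).

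Replicate numbers did not pair the libraries, with correlations of deviations of -0.042, -0.013 and 0.0038. With the replicate block, 2317 genes were called, 23 members fell and 3 rose at an adjusted p under 0.05, and HNRNPA0 was the member that lost the threshold. For SRSF12, HNRNPH2 and HNRNPCL2, with 6 counts or fewer in every library, no difference was detectable.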
